A study of Mus musculus with 2 samples.

Results

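The miRNAs examined here were 5 that lie at imprinted loci but outside the large imprinted miRNA clusters. They are Mir335 in Mest, Mir296 and Mir298 at the Gnas locus, Mir483 in Igf2 and Mir675 in H19. They were chosen by name, for the imprinting of their hosts, and all 5 are listed among the 1638 miRNA features for which smRNA-seq values were available. The study had 1 library of mESCs from the wild-type line E14. Its methods describe E14 mESCs as naive and grown without feeder cells, while its sample list calls this sample mESC only. There was 1 library of wild-type male prospermatogonia, collected at E15.5 (embryonic day). The prospermatogonia came from C57Bl/6J mothers that carried an Oct-4/GFP transgene. GEO's labels call these cells PGCs, and the study's sample list calls them prospermatogonia. The number of embryos in the sample is not given in the sources used here. With 1 library per cell type no difference has a replicate check, and no test was run.

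Imprinted genes are expressed mainly from the allele of a single parent, through DNA methylation that is set in the germline. Methylation imprints are erased in PGCs and set anew later, on the paternal side in prospermatogonia. Mest, which encodes a hydrolase-like protein, and Igf2, a fetal growth factor, are expressed from the paternal allele. H19, a long non-coding RNA next to Igf2, is expressed from the maternal allele, and Mir675 is cut out of it. The Gnas locus encodes the stimulatory G protein alpha subunit and produces transcripts from either parental allele, and Mir296 and Mir298 are regarded as part of its paternally expressed antisense transcription. The reads of either library were not divided by allele, so that the parental labels below are those of the hosts in somatic tissue and not measurements.

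The positions of all 5 miRNAs in the table are exactly those of the GENCODE vM21 miRNA genes of the same names on GRCm38. Mir335 lies on chromosome 6 from 30741299 to 30741396 on the plus strand, in an intron of all 7 Mest transcripts that span it. Mir483 lies on chromosome 7 from 142654924 to 142654996 on the minus strand, in an intron of all 7 Igf2 transcripts that span it. Mir675 lies 77776 bases away on the same strand, from 142577064 to 142577147. It is within an exon of 3 H19 transcripts and in an intron of 1. Mir296 (from 174267047 to 174267125) and Mir298 (from 174267504 to 174267585) lie on the minus strand of chromosome 2, with 378 bases between them. In GENCODE they are inside no host gene. Nespas, the antisense transcript on the same strand, ends 13652 bases from Mir298, and Gnas, on the opposite strand, begins 16735 bases from it. The table held no other feature inside Mest, Igf2 or H19, and none inside Nespas or Gnas.

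**Figure D1:**
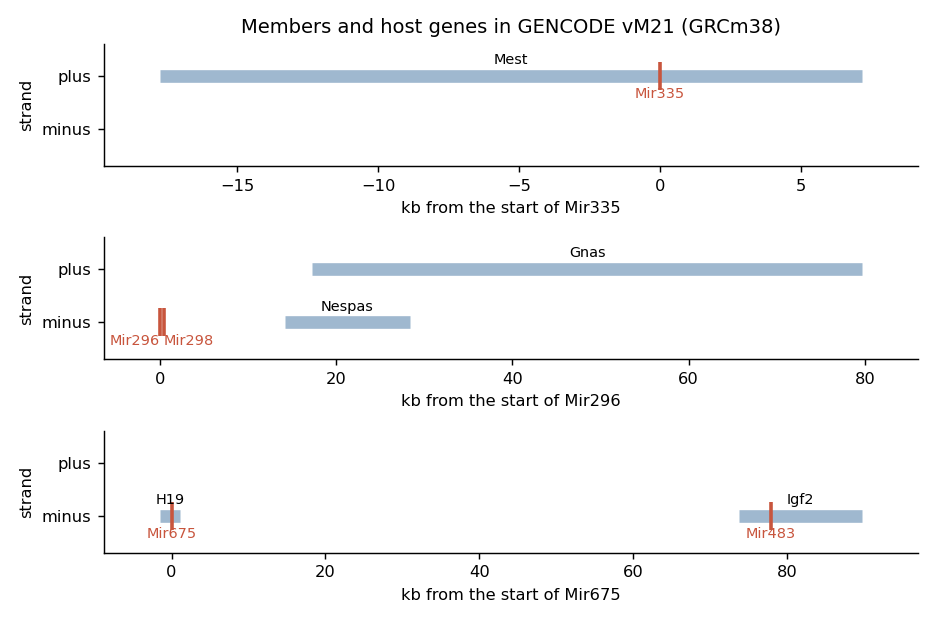
Host genes (blue bars) and the 5 miRNAs (red marks) by strand, in kb from the start of the miRNA named under each axis. Mir335, Mir675 and Mir483 lie inside Mest, H19 and Igf2, whereas Mir296 and Mir298 lie 14112 and 13652 bases beyond the end of Nespas.

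The mature miRNAs of the 3 members with reads in both libraries are shown first, because the differences below concern them. The sequences are those of RefSeq (GRCm38.p6), 5′ to 3′, with the seed (bases 2 to 8, which pair with target mRNAs) in capitals:
mmu-miR-298-5p: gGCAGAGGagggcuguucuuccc
mmu-miR-298-3p: gAGGAACUagccuucucucagcuu
mmu-miR-335-5p: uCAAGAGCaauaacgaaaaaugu
mmu-miR-335-3p: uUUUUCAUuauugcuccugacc
mmu-miR-296-5p: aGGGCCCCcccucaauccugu
mmu-miR-296-3p: gAGGGUUGgguggaggcucucc

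The mature miRNAs of Mir483 and Mir675 are shown because they mark what was absent or nearly absent from both libraries:
mmu-miR-483-5p: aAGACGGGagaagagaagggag
mmu-miR-483-3p: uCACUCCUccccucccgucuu
mmu-miR-675-5p: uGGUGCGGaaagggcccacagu
mmu-miR-675-3p: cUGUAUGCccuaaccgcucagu

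All 10 seeds differ from each other, and none of them is the seed of any other of the 1679 mature miRNAs in the RefSeq table. Thus each member is alone in its seed family there, including Mir296 and Mir298, which are neighbors on the chromosome. No hairpin of the 5 shares a run of more than 12 bases with any of 1004 other RefSeq hairpins. Reads of mature length could thus be told apart from those of these hairpins. Features without a RefSeq hairpin were not compared. The GC content of the hairpins was 42.9% for Mir335, 53.7% for Mir298, 58.9% for Mir483, 63.1% for Mir675 and 63.3% for Mir296, against a median of 51.7% over all hairpins of the RefSeq table. The values of the study are per hairpin and do not separate the arms. In the hairpin of Mir298, which had the most reads of the 5, the capitals mark the mature arms:
Mir298: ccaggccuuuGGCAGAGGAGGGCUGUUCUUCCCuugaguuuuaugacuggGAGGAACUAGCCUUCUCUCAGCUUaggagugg

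The values were deposited as log2 and could be turned back into whole reads. If they are read as log2 RPM (reads per 1000000 of the library), 1 read equals 2.22 RPM for mESCs and 0.348 RPM for prospermatogonia. The libraries then held 449643 and 2869578 reads in all, and 110455 and 155237 of these were on miRNA features. No read at a feature is compatible with as many as 3 reads, equal to 6.67 RPM for mESCs and to 1.05 RPM for prospermatogonia. All intervals are 95% Wilson intervals and cover counting error only. Among markers of the cell types, the 12 mESC miRNAs held 24.7% of the miRNA reads of mESCs and 3.25% of those of prospermatogonia, with Mir295 and Mir292 highest in either. The 11 male germ cell miRNAs found by name, led by Mir470 and Mir881, held 0.00634% (7 reads) and 4.46% (6929 reads). In mESCs 1 of them had more than 3 reads. With 2 rows entered under mmu-mir names (mmu-mir-743b.1 and mmu-mir-871.1), added after the values were seen, the shares of the male germ cell miRNAs were 0.0127% and 10.9%. The 10 listed miRNAs of mesenchymal and gonadal somatic cells held 3.79% and 2.12%, with more than 3 reads for 6 and 5 of them. Mir21 had 2215 reads in mESCs and 486 in prospermatogonia, Mir143 1393 and 260, Mir10b 250 and 1922, and Mir140 280 and 558. The 5 listed blood and endothelial miRNAs held 0.593% and 0.106%, all but 1 read on Mir142 (400 and 124 reads) and Mir126 (255 and 40). On the same lists, Mir202 of gonadal somatic cells had 0 and 57 reads, Mir451 of red blood cells had 0 and 1, and Mir144 and Mir223 of blood had 0 in both. These were picked after their values were seen, and Mir142 of the same blood list had reads in both libraries. The part of such cells in the levels of the members was not tested. Fewer cells of a type and less RNA per cell cannot be told apart in these bulk samples.

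Mir298 was by far the most abundant of the 5, and the members assigned to paternally expressed hosts held all the reads. The 4 paternal members together had 1286 reads in mESCs, 1.16% of the miRNA reads (1.10% to 1.23%), and 3508 in prospermatogonia, 2.26% (2.19% to 2.33%). Mir675, the only member in a maternally expressed host, had no read in either library. Mir483, a paternal member, had just 0 and 4 reads. As a share of miRNA reads the paternal members were therefore 1.94-fold higher in prospermatogonia (1.82 to 2.07). Without Mir298 they held 0.280% and 0.291%, a ratio of 1.04 (0.899 to 1.20), so that the higher summed share rested on Mir298. That ratio joins opposite directions, a share 3.58-fold higher for Mir296 and a ratio of 0.785 for Mir335.

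**Figure D2:**
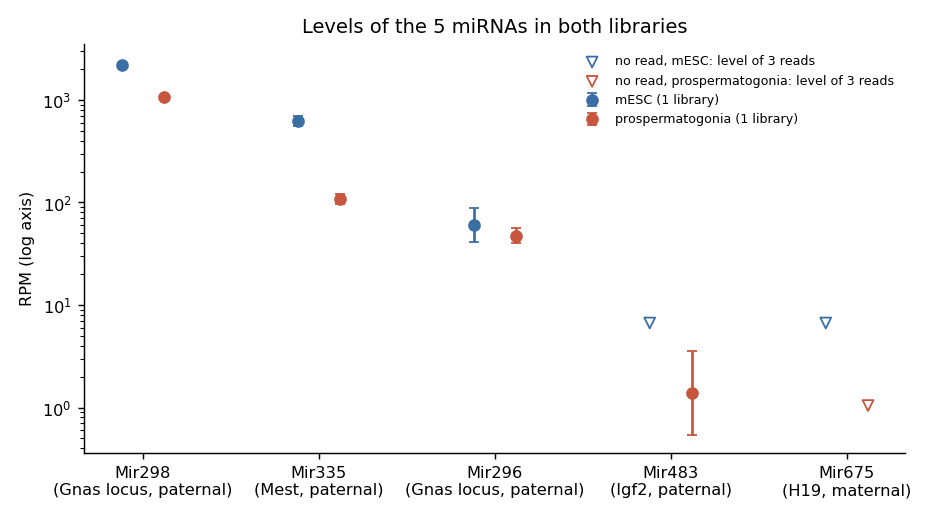
Level of each miRNA in RPM (log axis) in the mESC library (blue) and the prospermatogonia library (red). Bars are 95% Wilson intervals of the counting error, and open triangles stand at the level of 3 reads where no read was found. Mir298, Mir335 and Mir296 were measured in both libraries, Mir483 in prospermatogonia only and Mir675 in neither.

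Of the Gnas locus miRNAs, Mir298 had 977 reads in mESCs, 2173 RPM (2041 to 2313), and 3057 reads in prospermatogonia, 1065 RPM (1028 to 1104). It was 20th among all features in mESCs and 10th in prospermatogonia. Its level per library read was thus lower in prospermatogonia, with a log2 ratio of -1.03 (-1.13 to -0.92), at the edge of a 2-fold difference. Its share of the miRNA reads was higher, at 1.97% (1.90% to 2.04%) against 0.885% (0.831% to 0.941%) in mESCs. These statements differ because, with the values read as RPM, miRNAs made up 24.6% of the mESC library and 5.41% of the prospermatogonia library. The study describes the smRNAs of mESCs as mostly miRNAs. It describes those of prospermatogonia as enriched in longer smRNAs, with most smRNAs mapping to transposable elements. How far this make-up sets the levels per library read was not tested.

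Mir296, the other miRNA of the Gnas locus, had 27 reads in mESCs, 60.0 RPM (41.3 to 87.4), and 136 in prospermatogonia, 47.4 RPM (40.1 to 56.1). The intervals overlap, and with a log2 ratio of -0.34 (-0.93 to 0.25) a difference per library read was not detectable at this depth. It stood 125th among all features in mESCs and 70th in prospermatogonia, and its share of the miRNA reads was 3.58-fold higher in prospermatogonia (2.38 to 5.40).

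Mir335, in the intron of Mest, had 282 reads in mESCs, 627 RPM (558 to 705), and 311 in prospermatogonia, 108 RPM (97.0 to 121). It was the lowest of these 3 relative to mESCs, with a log2 ratio of -2.52 (-2.77 to -2.30). As a share of the miRNA reads it went from 0.255% (0.227% to 0.287%) to 0.200% (0.179% to 0.224%), a ratio of 0.785 (0.668 to 0.922), and its place among all features from 41st to 46th. Relative to the other miRNAs, the Mest miRNA was thus close to level while both Gnas locus miRNAs were higher in prospermatogonia.

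The 2 miRNAs of the H19-Igf2 domain were at or near the limit of detection. Mir483, in Igf2, had 4 reads in prospermatogonia, 1.39 RPM (0.542 to 3.58), and no read in mESCs, where the same level would have given 0.627 reads. The mESC library was therefore not deep enough to show such a level, and no fold difference is given. Mir675, in the H19 exon, had 0 reads in both libraries, which allows up to 0.00272% of the miRNA reads in mESCs and 0.00193% in prospermatogonia. Both miRNAs lay far below those of Mest and the Gnas locus.

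The order of levels was the same in both libraries, from Mir298 through Mir335 to Mir296, with Mir483 and Mir675 together at the end. Per base of the hairpin, the levels in mESCs were 26.5 RPM for Mir298, 6.40 RPM for Mir335 and 0.760 RPM for Mir296. In prospermatogonia they were 13.0, 1.11 and 0.600 RPM per base in the same order, and 0.0191 RPM for Mir483. Neighbors in this order were apart by more than their counting intervals except Mir483 and Mir675, which cannot be ordered in either library at these depths.

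Ratios between members within a library do not depend on how the libraries are scaled. Mir298 had 3.46 reads per read of Mir335 in mESCs (3.03 to 3.95) and 9.83 in prospermatogonia (8.75 to 11.0). Mir335 had 10.4 reads per read of Mir296 in mESCs (7.06 to 15.46) and 2.29 in prospermatogonia (1.87 to 2.80). Both pairs of intervals are far apart, so that the balance of the Gnas locus miRNAs and the Mest miRNA differed between these libraries by more than counting error. Within the Gnas locus, Mir298 had 36.2 reads per read of Mir296 in mESCs (24.7 to 52.9) and 22.5 in prospermatogonia (18.9 to 26.7). These intervals overlap, and the 27 reads of Mir296 in mESCs set the precision. Of all reads on the 5 members, Mir298 held 76.0% in mESCs (73.6% to 78.2%) and 87.1% in prospermatogonia (86.0% to 88.2%), and Mir335 21.9% (19.8% to 24.3%) and 8.87% (7.97% to 9.85%).

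**Figure D3:**
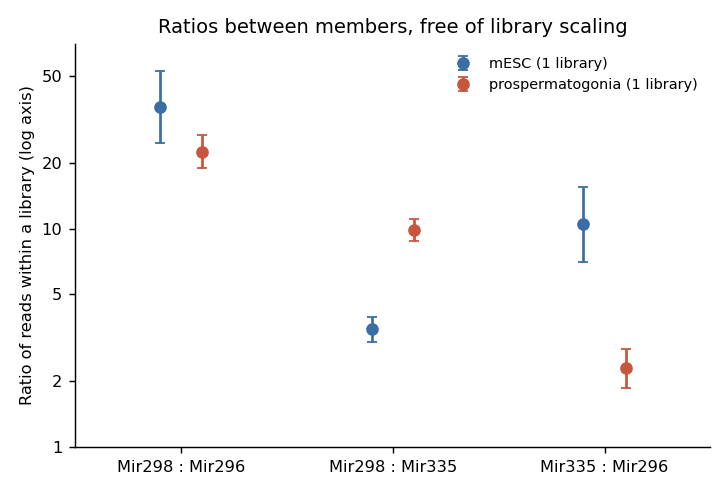
Reads of the first miRNA per read of the second within each library (log axis), with 95% Wilson intervals. The ratio of Mir298 to Mir335 was higher in prospermatogonia (9.83 against 3.46) and that of Mir335 to Mir296 lower (2.29 against 10.4), whereas the intervals of Mir298 to Mir296 overlap.

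The members were next set against all features of the table. Mir298, Mir335 and Mir296 reached 10 RPM in 1 or both libraries, and Mir483 and Mir675 did not. Of the 3, Mir298 and Mir335 (2 of 3) were at least 2-fold lower in prospermatogonia, as were 80.8% of the 203 features above this level, and 0 were at least 2-fold higher, against 9.85% of these features. The counts are thus near the background. The median log2 ratio was -1.03 for the 3 members and -2.52 for the 203 features, whose quartiles were -3.68 and -1.42. The ratio of Mir335 lay in the middle, with 100 of the 203 features lower. Those of Mir298 and Mir296 lay above the upper quartile, with 163 and 173 features lower. Since Mir296 and Mir298 are neighbors, they count as a single locus rather than as independent examples.

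**Figure D4:**
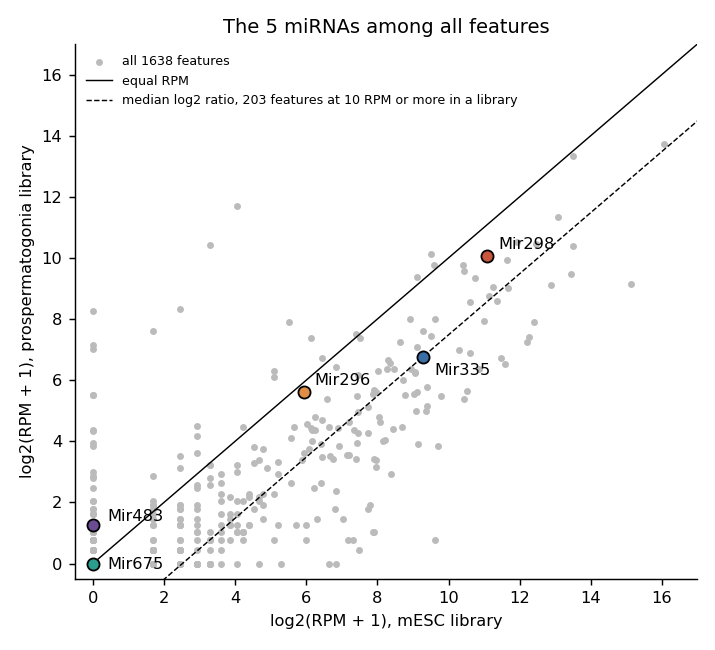
Level of each of 1638 features in the mESC library (x axis) and the prospermatogonia library (y axis), as log2(RPM + 1), with the 5 miRNAs in color. Mir335 lies on the dashed line of the median log2 ratio (-2.52), Mir298 and Mir296 lie between it and the line of equal RPM, and Mir483 and Mir675 lie at the lower left.

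The direction of the Gnas locus miRNAs depended on the scaling. Scaling the libraries to all miRNA reads moves every log2 ratio up by 2.18 before the pseudocount is added. The log2 ratios were then 1.15 for Mir298, 1.82 for Mir296 and -0.35 for Mir335. With scaling to the median ratio over the 111 features that reached 10 RPM in both, a shift of 2.37, they were 1.34, 2.01 and -0.16. Apart from the pseudocount, which makes the shift smaller for low features, a scaling shifts every ratio alike. The order of the members stayed as it was. At least 2-fold higher under either scaling were 2 of the 3 members, Mir298 and Mir296, against 20.2% and 22.2% of the 203 features.

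**Figure D5:**
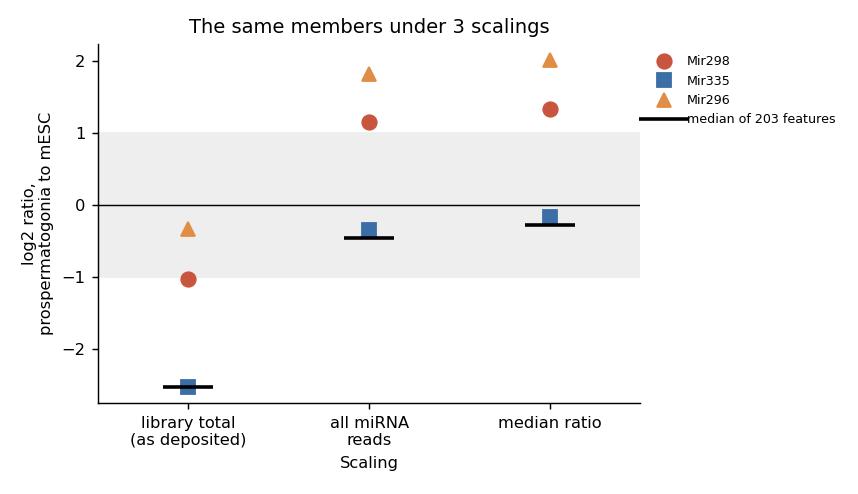
log2 ratio of prospermatogonia to mESC (y axis) for Mir298, Mir335 and Mir296 under 3 scalings (x axis), with the median of 203 features as a black bar and differences under 2-fold shaded. Mir298 and Mir296 are below 0 as deposited and above 1 under both other scalings, and Mir335 (-2.52, -0.35 and -0.16) stays beside the median (-2.52, -0.46 and -0.28).

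The imprinted region at Dlk1-Dio3, which holds a large cluster of miRNAs expressed from the maternal allele, was compared next. Of 50 miRNAs that the list used assigns to that region, 44 are in the table. More than 3 reads were found for 21 of them in mESCs and 23 in prospermatogonia, against 202 and 224 of all 1638 features. The share of the miRNA reads on the 44 was 1.96% for mESCs and 1.38% for prospermatogonia. Of 19 listed miRNAs that reached 10 RPM in 1 or both libraries, 18 were at least 2-fold lower in prospermatogonia and 0 higher. Of all 203 features, 80.8% and 9.85% were. Their median log2 ratio, -2.52, was that of all features. With scaling to all miRNA reads 5 were lower and 1 higher, against 39.9% and 20.2% of the 203 features. With scaling to the median ratio 4 were lower and 2 higher, against 36.5% and 22.2%. The region holds further rows under other names. With all 58 rows between the outermost listed miRNAs, a count added after the values were seen, 20 of 21 were lower. The shares were then 2.01% and 1.46%. This span runs from 108836973 to 109743795 and starts at Mir345 (16 and 19 reads). Whether Mir345 and the rows next to it belong to the maternally expressed cluster was not checked. Rows beyond the span were not counted. Mir127, the most abundant of the list, had 1191 and 1096 reads, Mir411 had 251 and 137, and Mir434 had 160 and 236. Maternally expressed miRNAs were therefore read in both libraries at Dlk1-Dio3, and the 0 reads of Mir675 were not shared by all miRNAs of maternally expressed hosts. Mir335, with its ratio of -2.52, lay at the median of the Dlk1-Dio3 miRNAs, and Mir298 and Mir296 lay above it. The difference between these sets was not tested.

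The features most like each member were found by the distance between their log2(RPM + 1) values over the 2 libraries. For Mir298 these were Mir30e, with 1450 and 2831 reads in mESCs and prospermatogonia, and Mir99b, with 607 and 2508 (distances 0.58 and 0.74 on the log2 scale). For Mir335 they were Mir301, with 248 and 391 reads, and Mir541 of the Dlk1-Dio3 region, with 223 and 233 (0.38 and 0.53). For Mir296 they were Mir322, with 29 and 145 reads, and AC121784.1, a row with the name of a genomic clone that also lies within the Dlk1-Dio3 region, with 43 and 118 (0.14 and 0.69). Mir483 shared its reads, 0 and 4, with exactly 2 other features. A likeness over 2 libraries is a description of levels only.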

How the data were processed

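The data were smRNA-seq of 1 mESC library and 1 prospermatogonia library. The libraries were made from total RNA with size selection on a gel. Per the labels, Trim Galore 0.4.1, Bowtie and GRCm38 were used, whereas the methods name piPipes and mm9. Since 1300 of 1638 features (79.4%), among them all 5 members, coincide in position with a miRNA gene of GENCODE vM21, GRCm38 positions are given. The values were deposited by the authors as log2, 1 column per library. How reads were counted per feature, and whether by strand, is not given in the sources used here.

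On the linear scale, each library had a constant of which 100% of the values over its minimum were whole multiples, within 0.02 reads (largest deviation 0.0165). Features without a read, entered as 0.9 reads, were set to 0. Reading the values as log2 RPM follows the unit stated for the RNA-seq data. Library totals and RPM rest on it, whereas reads and shares of miRNA reads do not. The log2 ratio used a pseudocount of 1 RPM on the log2(value + pseudocount) scale, which understates changes of low features. The intervals beside it are those of the ratio of reads. Counts used features that reached 10 RPM in 1 or both libraries, and a 2-fold threshold.

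The members, lists and comparisons were chosen with earlier results of these data known. Named are the 5 members, features inside their hosts, the 2 features nearest to each member with more than 3 reads, and the 2 features of each list with the most reads in either library. Mir202, Mir451, Mir144 and Mir223 were named after their values were seen. Alternatives were pseudocounts of 0.1 and 5, other scalings, filters and a 4-fold threshold, and a total of features with a miRNA name only. The calculation was tested on simulated reads. Python 3.11.15, numpy 2.4.6, pandas 2.3.3 and matplotlib 3.10.9 were used.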

Additional observations from a re-analysis of the deposited data

How the results depend on the processing

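No paired analysis was possible because a single library stood for either cell type, and for the same reason no replicate could be left out. Of 36 alternative values, 20 kept their direction and stayed within the counting interval or within 1.5 times the number reported, 8 moved further and 8 changed direction. The pseudocounts of 0.1 and 5 RPM moved none of them out of these limits. The log2 ratio of the summed reads of the paternal members, -1.23, is also that of all members, since Mir675 had no read. It reversed to 1.15 with scaling to the median ratio and to 0.96 with scaling to all miRNA reads. In the same order Mir298 reversed from -1.03 to 1.34 and 1.15, and Mir296 from -0.34 to 2.01 and 1.82, while Mir335 moved from -2.52 to -0.16 and -0.35. Under both scalings the members at least 2-fold lower went from 2 to 0 and those higher from 0 to 2, as fixed by the shift of every ratio. All features went from 164 lower and 20 higher to 74 and 45, and to 81 and 41. With a 4-fold threshold 1 member, Mir335, was lower, as were 64.5% of 203 features. With every feature above 0 reads counted, the number higher went to 1 (11.3% of 354 features), which is Mir483 with 4 reads against 0. That count follows from the pseudocount and is no difference, since the same level would have given 0.627 reads in mESCs. The share of miRNA reads on the members was 1.21% and 2.30% when features with a miRNA name alone made up the total, within the counting intervals. Depth limits Mir296 (27 reads), Mir483 and Mir675 (no read) in mESCs, where 3 reads are 6.67 RPM.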
